A study of Mus musculus with 24 samples.

Results

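The genes of the skeletal muscle sarcomere, its calcium cycle and its precursor cells were followed in wounds of obese diabetic mice. They were 41 named genes, matched by symbol to 41 of the 54232 genes in the count tables. By fibre class, 13 are shared by all fibre types, 13 belong to fast fibres, 8 to slow fibres and 2 to embryonic and perinatal fibres, 4 are satellite cell and myogenic factors, and 1 encodes an acetylcholine receptor subunit. The tissue was dorsal wound from male C57BLKS/J mice with the Lepr db/db genotype, a leptin receptor mutation that all 5 groups carried. Full-thickness punch wounds of 6 mm were made at 16 weeks and dressed with an alginate bandage that was renewed on day 3, and tissue was taken on day 10, at 17.5 weeks. The bandage was a control bandage (Ctrl, 6 libraries) or carried medium conditioned by primary macrophages polarised as M0 (CM0, 4), M1 (CM1, 4), M2a (CMA, 5) or M2c (CMC, 5). No unwounded skin and no wound of a non-diabetic mouse was analysed here.

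A sarcomere is the contractile unit of striated muscle. Myosin heavy and light chains form its thick filament, actin with nebulin, tropomyosin and the troponins its thin filament, and Z-discs anchor the thin filaments while titin spans from Z-disc to mid-sarcomere. Calcium leaves the sarcoplasmic reticulum through the ryanodine receptor, is bound there by calsequestrin, and is pumped back by the SERCA ATPases. Fast, slow and developing fibres use different genes for the same part, so their myosins and troponins report fibre type, and slow troponins are also made in developing fibres. Satellite cells, marked by Pax7, are the stem cells of muscle; they activate Myf5 and Myod1, differentiate with Myog, and build new fibres that pass through embryonic (Myh3) and perinatal (Myh8) myosin. Dorsal mouse skin lies on the panniculus carnosus, a thin sheet of mainly fast skeletal muscle that a full-thickness wound cuts.

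The myosin heavy chain genes that carry the fibre-type comparison are close paralogs, and 5 of the 6 followed lie together on chromosome 11. A stretch of 60 coding bases near the start of the coding sequence is shown here. Among gap-free stretches within a single exon of every gene, it had the most positions that differed among the 6 genes. It was chosen for variation over all 6 genes together and does not represent the coding sequence as a whole. A single pair can differ less in it: Myh1 and Myh4 were more alike here than over the whole sequence. Here Myh4 was nearer to Myh1 than Myh2 was, while over the whole coding sequence Myh2 was nearer. Sequences are from GENCODE M21 transcripts on GRCm38, 5′ to 3′ on the coding strand, and capitals mark bases that differ from Myh1.
Myh1 (chr11:67201986-67202045, exon 3, plus strand): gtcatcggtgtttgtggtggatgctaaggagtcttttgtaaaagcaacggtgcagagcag
Myh4 (chr11:67240728-67240787, exon 2, plus strand): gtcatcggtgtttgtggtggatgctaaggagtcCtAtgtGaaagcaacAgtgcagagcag
Myh2 (chr11:67173220-67173279, exon 2, plus strand): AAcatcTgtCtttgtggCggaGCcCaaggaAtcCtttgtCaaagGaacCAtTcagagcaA
Myh8 (chr11:67278967-67279026, exon 3, plus strand): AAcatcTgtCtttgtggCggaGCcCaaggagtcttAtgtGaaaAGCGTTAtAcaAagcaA
Myh3 (chr11:67080103-67080162, exon 2, plus strand): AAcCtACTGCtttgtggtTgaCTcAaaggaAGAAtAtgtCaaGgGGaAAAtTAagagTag
Myh7 (chr14:54992713-54992772, exon 4, minus strand): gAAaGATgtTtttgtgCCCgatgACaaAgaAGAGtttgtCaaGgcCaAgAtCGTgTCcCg
In this stretch Myh4, the IIb myosin of the fastest fibres, differed from Myh1, the IIx myosin, at 4 of 60 bases, Myh2 (IIa) at 16, Myh8 at 20, and Myh3 and the slow myosin Myh7 at 27 each. Over the whole coding sequence the identity with Myh1 was 91.0% for Myh2, 90.1% for Myh4, 89.2% for Myh8, 80.2% for Myh3 and 77.2% for Myh7. Of all runs of 50 coding bases, 27.2% in Myh1, 27.9% in Myh2, 19.2% in Myh4 and 21.1% in Myh8 were found unchanged in another of the 6 genes, against 3.80% in Myh3 and 0.226% in Myh7. The sources used here do not give how reads that match several genes were counted. In this respect levels of the adult fast myosins and Myh8 are less certain than that of Myh3. Myosin genes outside these 6, such as Myh6, were not searched for shared runs. Myh7 had only 40 counts in all libraries together, so its level is uncertain as well.

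Promoters are shown for 3 members that stood differently in the correlations across libraries described further on. Acta1 was closest to adult muscle genes, Myh3 was closest to genes of developing fibres, and Myh4 did not pass with Acta1 or Myh3. Acta1 and Myh3 were themselves related (r = 0.615). They span 250 bases before to 50 after the RefSeq start on GRCm38.p6, and capitals mark E-boxes (CANNTG, the site type of the MyoD family), CArG boxes (the site type of serum response factor) and MEF2 sites.
Acta1 (chr8:123894726-123895025, minus strand): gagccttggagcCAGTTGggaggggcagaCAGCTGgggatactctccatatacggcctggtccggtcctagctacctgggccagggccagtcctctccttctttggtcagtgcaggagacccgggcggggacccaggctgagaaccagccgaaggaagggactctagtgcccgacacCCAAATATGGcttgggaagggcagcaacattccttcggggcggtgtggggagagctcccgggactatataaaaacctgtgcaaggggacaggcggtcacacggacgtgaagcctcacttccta
Myh3 (chr11:67078050-67078349, plus strand): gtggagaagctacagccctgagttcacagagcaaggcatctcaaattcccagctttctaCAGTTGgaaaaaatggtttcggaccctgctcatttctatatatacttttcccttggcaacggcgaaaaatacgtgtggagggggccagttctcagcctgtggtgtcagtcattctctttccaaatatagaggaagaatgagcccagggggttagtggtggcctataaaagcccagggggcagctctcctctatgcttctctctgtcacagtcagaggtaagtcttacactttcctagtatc
Myh4 (chr11:67237562-67237861, plus strand): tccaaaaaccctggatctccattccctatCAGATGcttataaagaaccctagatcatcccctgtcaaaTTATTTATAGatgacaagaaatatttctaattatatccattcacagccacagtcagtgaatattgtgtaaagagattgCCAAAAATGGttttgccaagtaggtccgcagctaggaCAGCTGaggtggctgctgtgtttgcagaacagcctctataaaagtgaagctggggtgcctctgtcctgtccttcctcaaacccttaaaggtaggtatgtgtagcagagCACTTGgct
Acta1 held 2 E-boxes and 1 CArG box, Myh3 held 1 E-box, and Myh4 held 3 E-boxes, 1 CArG box and 1 MEF2 site. Promoters were found for 32 of the 41 members, counted here over all windows of a gene and on both strands. A CArG box was present in 12.5% of these members (Acta1, Myh4, Myl3 and Ldb3) and in 1.81% of 27025 genes. A MEF2 site was present in 18.8% of them and in 3.70% of all genes, the E-box CAGCTG, which is one form of CANNTG, in 40.6% and 18.3%, CANNTG in 81.3% and 75.0%, and the M-CAT motif CATTCC in 28.1% and 16.6%. A match describes the letters only.

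Total counts ran from 7267879 (Ctrl 4) to 11985292 (Ctrl 6) per library. The members together held between 0.611% (CMA 3) and 3.85% (Ctrl 4) of a library's counts. Titin alone held between 0.267% and 1.94% and ranked between number 4 and number 23 among all genes. Levels are given as CPM, the usual read count scaled by library size (here with TMM factors), and, to compare one gene with another, as CPM per kb of exon.

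All 41 members had counts, but their levels per exon length spanned a wide range. Among the genes shared by all fibres the median over the 24 libraries ran from 3.42 CPM per kb for Xirp1, a protein of damaged and remodelling fibres, to 503 for Acta1, skeletal actin. Fast fibre genes reached 305 CPM per kb in Mylpf, the fast regulatory light chain, 215 in Myh1 and 209.9 in Tnnt3, fast troponin T. Of the slow fibre genes Mybpc1, a myosin-binding protein that fast fibres also make, stood highest at 37.5 CPM per kb, followed by Tpm3 at 29.2. The slow troponins lay between 3.54 (Tnnt1) and 8.97 (Tnnc1), while Myl3, Myl2 and Myh7 lay at 0.235, 0.0912 and 0.0125 CPM per kb. The developmental myosins Myh8 and Myh3 lay at 14.6 and 9.1 CPM per kb, Myog at 6.23, the receptor subunit Chrna1 at 1.82, Myod1 at 0.767, Myf5 at 0.175 and Pax7 at 0.105.

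**Figure D1:**
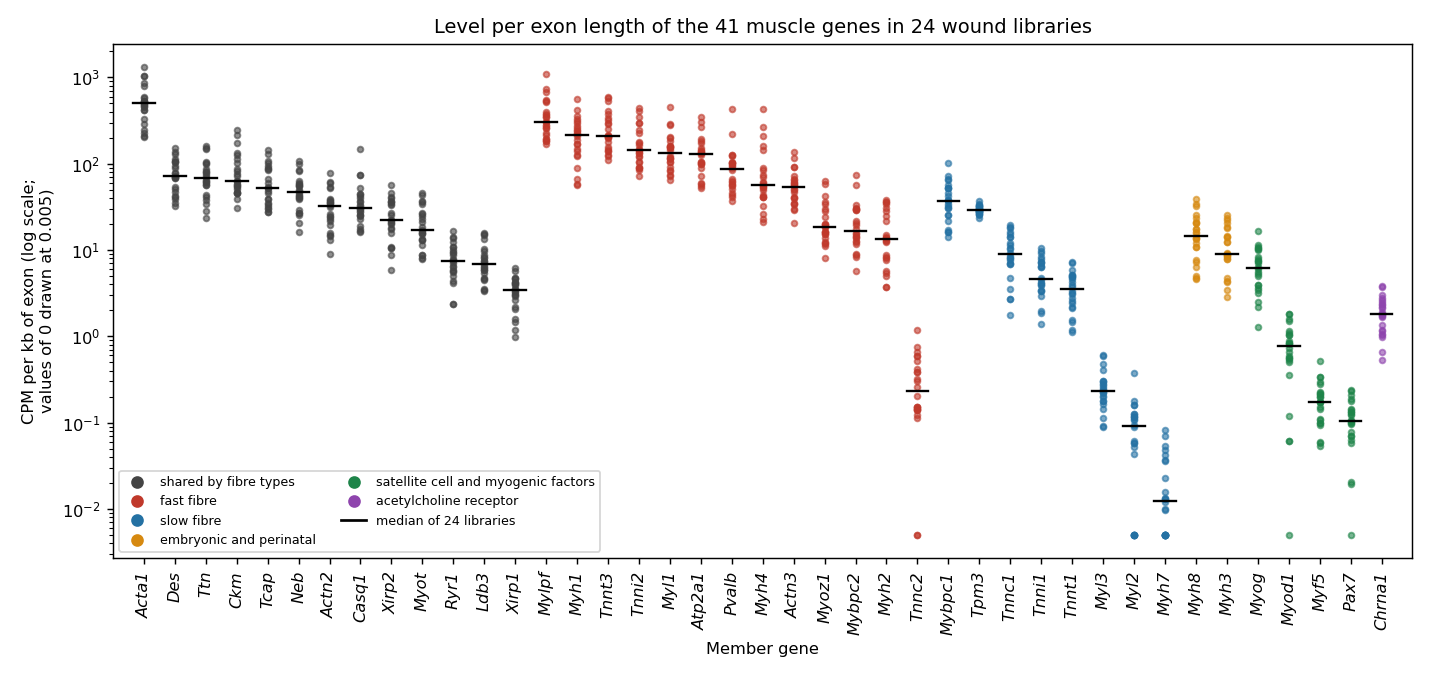
Level of each of the 41 member genes in CPM per kb of exon on a log axis, with 1 point per library and a black dash at the median of 24 libraries, coloured by fibre class. Acta1, Mylpf and Myh1 have the highest medians, and Myh7, Myl2, Pax7 and Myf5 the lowest.

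The slow myosin genes Myh7, Myl2 and Myl3 had few counts. Myh7, the heavy chain of slow and cardiac fibres, had 40 counts in all libraries together and 0 in 9 of 24, and a count of 0 allows up to 0.282 to 0.369 CPM in such a library (3 counts, counting error only). Myl2 had 40 counts and Myl3 119. Tnnc2, the fast troponin C, also had only 59 counts. Of its exon bases 74% overlap Ube2c, a cell cycle gene on the opposite strand, and the library kit does not mark strand, so its level is uncertain. These 4 genes and Myf5 did not pass the filter on low counts, and the other 36 members were tested. Atp2a1 (21.9% of exon bases shared with Rabep2), Ckm (15.5% with A930016O22Rik) and Myh1 (8.11% with Myhas) overlap a gene on the other strand to a smaller extent.

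Markers of heart muscle were at or near 0, with Myh6 at 7 counts and Nppa at 26 in all libraries, and Tnni3 from its lowest of 1.12 to its highest of 4.605 CPM. Of the brown fat markers Ucp1 had 19 counts, while Cidea ran from 1.09 to 4.44 CPM, Elovl3 from 1.59 to 14.1 and Ppargc1a from 1.14 to 5.85.

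Actin and titin showed how much the muscle signal varied between wounds of one group. Acta1 (ENSMUSG00000031972, chromosome 8, 123891769 to 123894751, minus strand) had a lowest of 645, a median of 842 and a highest of 2009 CPM among the controls, and the libraries of CM0 had 689, 1601, 720.1 and 791 CPM, those of CM1 440.2, 642, 829.2 and 500.1, those of CMA 352, 918, 315, 804 and 741 and those of CMC 318, 1321, 379.8, 1214 and 761. The highest libraries were Ctrl 4, CM0 2 and Ctrl 2, the lowest CMA 3 and CMC 1, and all media groups overlapped Ctrl. Titin, the giant spring of the sarcomere, ran from 2721 CPM for CMA 3 to 18959 in Ctrl 2, a 6.97-fold range, with 11286 ± 5586 CPM in Ctrl (SD, n = 6), 10282 ± 4938 for CM0 (n = 4), 6819.9 ± 2439 for CM1 (n = 4), 6451 ± 2979.8 for CMA (n = 5) and 8742 ± 4459.9 for CMC (n = 5). Neb, the nebulin ruler of the thin filament, ran from 429.6 to 2829.9 CPM. In bulk tissue a smaller amount of muscle and less RNA per fibre cannot be told apart.

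Libraries high or low in 1 muscle gene were mostly so in others. Of the 36 tested members 26 were highest in Ctrl 2 or Ctrl 4, and 30 were lowest in CMA 3, CMC 1 or CMA 1. Tpm3, a tropomyosin also made outside muscle, differed: it ran only from 143 to 224 CPM, a 1.57-fold range.

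Among Z-disc and intermediate filament genes, Des (desmin) ran from 122 to 571 CPM, Actn2 and Actn3, the alpha-actinins that cross-link Z-disc actin, from 33.9 to 299 CPM and 60.3 to 396 CPM, and Tcap, the titin cap, from 26.3 to 135 CPM. Ldb3 ran from 20.7 to 97 CPM, Myoz1 from 15.5 to 119.5 CPM, Myot from 17.2 to 102 CPM, and the actin-binding Xin proteins Xirp1 and Xirp2 from 5.74 to 36.3 CPM and 70.5 to 684 CPM. Of the remaining filament genes, Myl1 ran from 135 to 932 CPM, Mylpf from 179 to 1148 CPM, Mybpc1 from 63.5 to 462 CPM, Mybpc2 from 20.8 to 267 CPM, Tnnt3 from 176 to 937 CPM and Tnni2 from 107 to 663 CPM. These 15 genes varied between 4.68-fold (Des, Ldb3) and 12.9-fold (Mybpc2) from the lowest to the highest library.

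The calcium genes followed the same libraries. Atp2a1, the fast SERCA pump (ENSMUSG00000030730, chromosome 7, 126445858 to 126463108, minus strand), had a lowest of 346, a median of 537 and a highest of 1204 CPM among the controls, and the libraries of CM0 had 465, 1054, 354 and 492.8 CPM, those of CM1 248, 349.8, 526.4 and 309, those of CMA 204, 503, 191, 361 and 461 and those of CMC 181, 629.5, 211, 676 and 434. Casq1, calsequestrin of the sarcoplasmic reticulum (ENSMUSG00000007122, chromosome 1, 172209894 to 172219868, minus strand), had a lowest of 50.05, a median of 75.7 and a highest of 286 CPM among the controls, and the libraries of CM0 had 65.6, 144, 48.9 and 78.2 CPM, those of CM1 34.5, 58.1, 71.6 and 44.4, those of CMA 36.7, 86.2, 31.6, 58.1 and 63.1 and those of CMC 49, 86.1, 32.1, 102 and 55.7. In both genes Ctrl 4 was the highest of all libraries and every media group overlapped Ctrl. Ryr1, the calcium release channel, ran from 51.3 to 366 CPM, with 237 ± 85.5 CPM in Ctrl (SD, n = 6), 199.99 ± 71.9 for CM0, 132 ± 27.8 for CM1 (n = 4 each), 134 ± 70.3 for CMA and 166 ± 89.6 for CMC (n = 5 each). Pvalb, the soluble calcium buffer parvalbumin of fast fibres, ran from 39 to 449 CPM; its value in Ctrl 4 was over that of every other control, the next being 127 in Ctrl 2. Ckm, muscle creatine kinase, ran from 89.7 to 726 CPM.

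**Figure D2:**
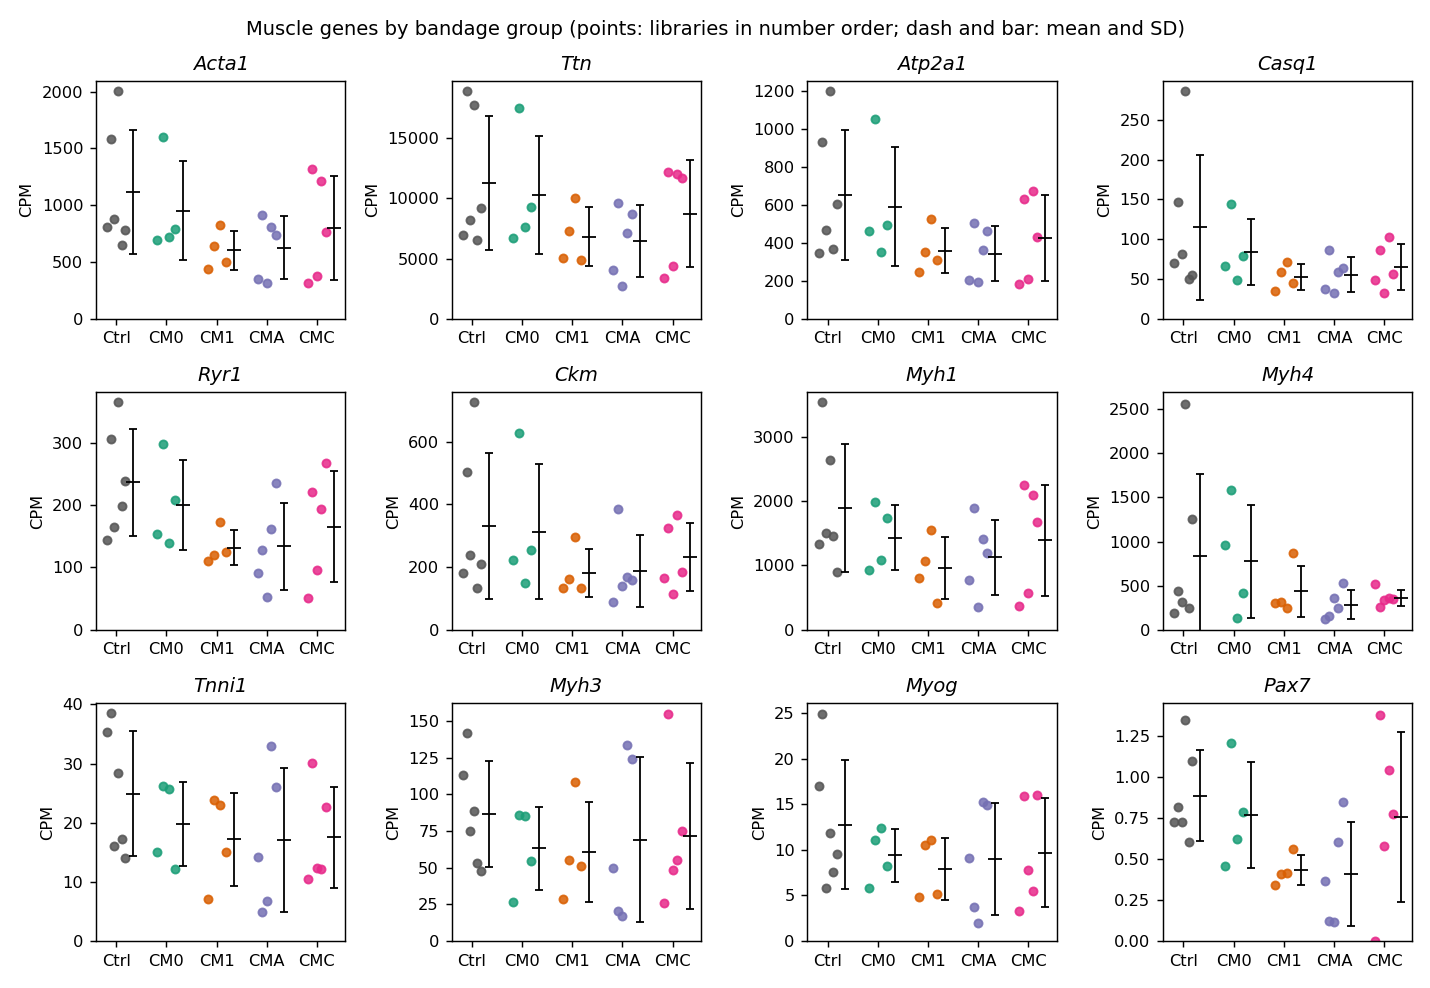
CPM of 12 member genes by bandage group, with 1 point per library and a dash with a bar for the mean and SD of the group (Ctrl n = 6, CM0 and CM1 n = 4, CMA and CMC n = 5). Ctrl 2, Ctrl 4 and CM0 2 stand high in Acta1, Ttn, Atp2a1 and Ckm. All groups overlap in every gene shown except Pax7, where the 4 CM1 libraries lie under the 6 controls. For Pax7 these are 3 to 5 counts per library in CM1 and 5 to 13 in Ctrl.

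Adult fast myosin dominated, and which fast myosin led differed between wounds. The shares below are of the summed CPM per kb of Myh1, Myh2, Myh4, Myh7, Myh3 and Myh8. Myh1 led in 18 libraries and Myh4 in 6, namely Ctrl 4, Ctrl 6, CM0 1, CM1 4, CMA 3 and CMC 1, so that each group held at least 1 library led by Myh4. Without division by exon length Ctrl 4 was led by Myh1 (45.7% against 44.2%), and Myh4 led in 5 libraries. Myh4 (ENSMUSG00000057003, chromosome 11, 67238029 to 67260446, plus strand) had a lowest of 195, a median of 377 and a highest of 2559.9 CPM among the controls, and the libraries of CM0 had 959.8, 1585, 137 and 418 CPM, those of CM1 298, 319, 249.8 and 869.6, those of CMA 126, 158, 365, 246 and 529.7 and those of CMC 515, 263, 333, 357 and 344. Its 20.3-fold range was the widest of the tested members without a 0. Myh1 (ENSMUSG00000056328, chromosome 11, 67200052 to 67224575, plus strand) had a lowest of 899, a median of 1483 and a highest of 3534 CPM among the controls, and the libraries of CM0 had 935, 1978, 1081 and 1741 CPM, those of CM1 804, 1064, 1556 and 419, those of CMA 777, 1887, 356, 1408 and 1199 and those of CMC 370.3, 2244, 568.3, 2092 and 1669.5. The ratio of Myh4 to Myh1 ran from 0.0882 (CMA 2) to 2.19 (CM1 4) with a median of 0.236.

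The Myh1 share was 62.7% ± 16.4 in Ctrl (SD, n = 6), 58.9% ± 14.8 for CM0 (n = 4), 57.2% ± 19.8 for CM1 (n = 4), 64.8% ± 15.1 for CMA (n = 5) and 61.2% ± 16.5 for CMC (n = 5). The Myh4 share was 25.5% ± 20.6, 29.1% ± 18.3, 29.7% ± 21.4, 21.2% ± 16 and 24.7% ± 18.6 in the same order. The group means of both lay within 1 SD of each other. Myh2, the IIa myosin, ran from 26.5 to 270.4 CPM and held between 1.34% (Ctrl 6) and 9.24% (CMC 5) of the sum. Myh7 never held over 0.0217%.

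**Figure D3:**
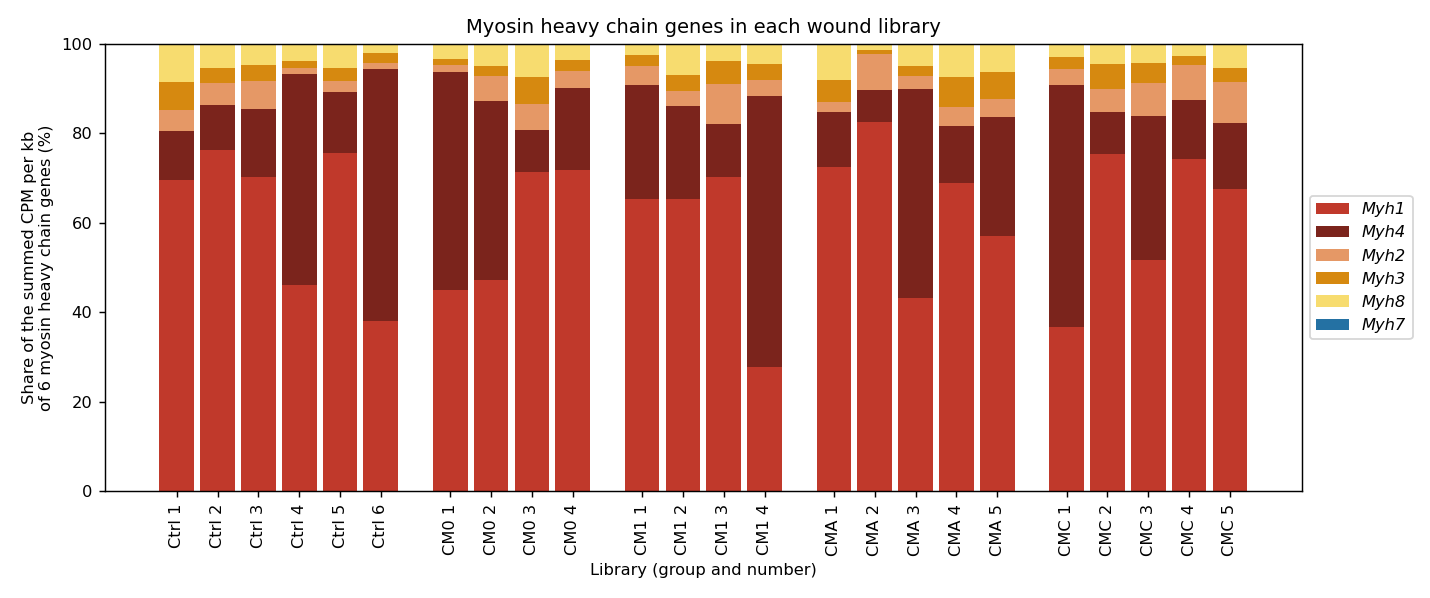
Share of each of 6 myosin heavy chain genes in their summed CPM per kb, in percent, with 1 bar per library and the libraries set out by group. Myh1 and Myh4 fill most of every bar, Myh4 is the larger of the 2 in 6 libraries, and Myh7 is too small to see.

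Fast troponins I and T outweighed their slow partners in all 24 libraries, on CPM per kb. Tnni2 made up 93.5% to 99.5% of the sum with Tnni1, and Tnnt3 made up 96.8% to 99.6% of the sum with Tnnt1. Troponin C went the other way: the share of Tnnc2 in the sum with Tnnc1 was 0% to 7.98%, with the overlap with Ube2c described above. Tnni1, slow troponin I (ENSMUSG00000026418, chromosome 1, 135779434 to 135810989, plus strand), had a lowest of 14, a median of 22.8 and a highest of 38.5 CPM among the controls, and the libraries of CM0 had 15.1, 26.1, 25.6 and 12.2 CPM, those of CM1 7.06, 23.8, 23 and 15, those of CMA 14.3, 4.96, 6.75, 32.9 and 26.1 and those of CMC 10.4, 30.1, 12.3, 12.2 and 22.6. Tnnt1 ran from 2.51 to 16 CPM and Tnnc1, the troponin C of slow and cardiac muscle, from 1.82 to 20.1 CPM. The slow troponins thus had counts in every library, while the slow myosin Myh7 had 0 in 9.

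Developmental myosins were present in every wound. Myh3, embryonic myosin (ENSMUSG00000020908, chromosome 11, 67078300 to 67102291, plus strand), had a lowest of 47.9, a median of 82.2 and a highest of 142 CPM among the controls, and the libraries of CM0 had 26.5, 86.2, 85.4 and 54.9 CPM, those of CM1 28.4, 55.2, 108 and 51, those of CMA 50.01, 20.7, 17.2, 134 and 125 and those of CMC 25.9, 155, 48.2, 55 and 75.1. CMC 2, Ctrl 2 and CMA 4 were highest and CMA 3 and CMA 2 lowest. Myh8, perinatal myosin, ran from 54.4 to 463 CPM, with 272 ± 143 CPM in Ctrl (SD, n = 6) and 218 ± 112, 138 ± 63.3, 162 ± 96.3 and 154 ± 88.4 for CM0, CM1, CMA and CMC. Together they held between 2.34% (CMA 2) and 14.8% (Ctrl 1) of the myosin sum, with 8.26% ± 3.67 in Ctrl, 7.73% ± 3.86 for CM0, 8.11% ± 2.36 for CM1, 9.79% ± 4.95 for CMA and 7.51% ± 2.22 for CMC (SD).

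Of the 4 myogenic factors, Pax7, Myf5 and Myod1 had lower medians per kb than Myog. Pax7 (ENSMUSG00000028736, chromosome 4, 139737062 to 139833528, minus strand) had a lowest of 0.606, a median of 0.774 and a highest of 1.35 CPM among the controls, and the libraries of CM0 had 0.458, 1.21, 0.623 and 0.787 CPM, those of CM1 0.342, 0.411, 0.415 and 0.56, those of CMA 0.369, 0.121, 0.113, 0.601 and 0.845 and those of CMC 0, 1.38, 0.582, 1.04 and 0.777. These are few counts, 152 in all, and the 0 for CMC 1 allows up to 0.337 CPM. Myf5 had 89 counts and ran from 0.112 to 1.08 CPM. Myod1 ran from 0 to 3.37 CPM, with its 0 for CM0 1. Myog, myogenin, the factor of terminal differentiation (ENSMUSG00000026459, chromosome 1, 134289989 to 134292548, plus strand), was the most abundant of the 4 and had a lowest of 5.81, a median of 10.7 and a highest of 24.9 CPM among the controls, and the libraries of CM0 had 5.86, 11.1, 12.3 and 8.26 CPM, those of CM1 4.78, 10.5, 11.1 and 5.15, those of CMA 9.09, 3.75, 1.91, 15.3 and 14.9 and those of CMC 3.25, 15.9, 7.8, 5.45 and 16.1. Chrna1, the acetylcholine receptor subunit that is made along immature and denervated fibres and is restricted to the endplate in innervated ones, ran from 2.36 to 16.7 CPM.

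Across the 24 libraries most members moved together, but not as 1 block. Correlations were computed on log2 CPM (prior count 2) with two-sided permutation tests of 100000 resamples, and p-values are adjusted over 48 relations for each reference gene, 40 members and 8 markers of other cells. The choice of Acta1 and Myh3 as references was made with values of these data known. No other genes were correlated with Acta1 or Myh3, so the share of all genes that would pass is not known. With Acta1, 37 of 40 members had an adjusted p under 0.05, the closest being Atp2a1 with r = 0.968 and rho = 0.911 (adjusted permutation p = 2.29e-05 and 2.53e-05). The next were Ttn (r = 0.963), Ldb3 (0.96), Actn2 (0.958) and Myl1 (0.948). The smallest p that the resamples can give is 1e-05. Of the 37, Tpm3 was the 1 with a negative sign, r = -0.451 and rho = -0.583 (adjusted permutation p = 0.0323 and 0.00515). Without Ctrl 4 and CMA 3, the libraries farthest from the Acta1 median, 35 of 40 passed, and r was 0.956 for Atp2a1, 0.957 for Ttn and -0.466 for Tpm3. On deviations from group means, 37 of 40 passed.

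Myh4 was apart from this pattern. Its relation with Acta1 was r = 0.357 and rho = 0.135 (adjusted permutation p = 0.0976 and 0.562), and r was 0.189 without the same 2 libraries. Its relation with Myh3 was r = -0.0116 and rho = -0.0791 (adjusted permutation p = 0.956 and 0.76). The other 2 members that did not pass with Acta1 were the sparse Myl3 and Myl2 (r = -0.0365 and 0.128).

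The members closest to Myh3 were the slow troponins and other genes of developing fibres. With Myh3, 27 of 40 members had an adjusted p under 0.05, and the closest was slow troponin I, Tnni1, with r = 0.91 and rho = 0.906 (adjusted permutation p = 8e-05 and 9.6e-05). Then came Myog (r = 0.898), Tnnc1 (0.895), Tnnt1 (0.87), Myh8 (0.848), Chrna1 (0.812), Myod1 (0.735) and Pax7 (0.719). The same genes had lower values with Acta1, at 0.555 for Tnni1, 0.574 for Myog, 0.514 for Tnnc1, 0.587 for Tnnt1, 0.704 for Myh8, 0.634 for Chrna1 and 0.547 for Myod1, except Pax7 at 0.729. Pvalb (0.184), Mybpc2 (0.237) and Ckm (0.308), the first 2 fast fibre genes and the third shared by fibre types, were low with Myh3 and high with Acta1 (0.739, 0.78 and 0.886). The difference between the 2 correlations of a gene was not tested, and Myh3 and Acta1 were themselves related, r = 0.615 and rho = 0.643 (adjusted permutation p = 0.00234 and 0.00194).

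Without CMA 3 and CMC 2, farthest from the Myh3 median, 18 of 40 members passed, with r = 0.896 for Tnni1, 0.870 for Myog, 0.866 for Tnnc1 and 0.885 for Tnnt1; on deviations from group means, 23 passed. CMA 2 shows the split within 1 wound: Acta1 was 918 CPM, the highest of CMA, while Tnni1 (4.96 CPM) and Tnnc1 (1.82) were the lowest of all 24 libraries. CMA 4 had 804 CPM of Acta1 and 32.9 of Tnni1, and was chosen with CMA 2 after their values were seen.

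**Figure D4:**
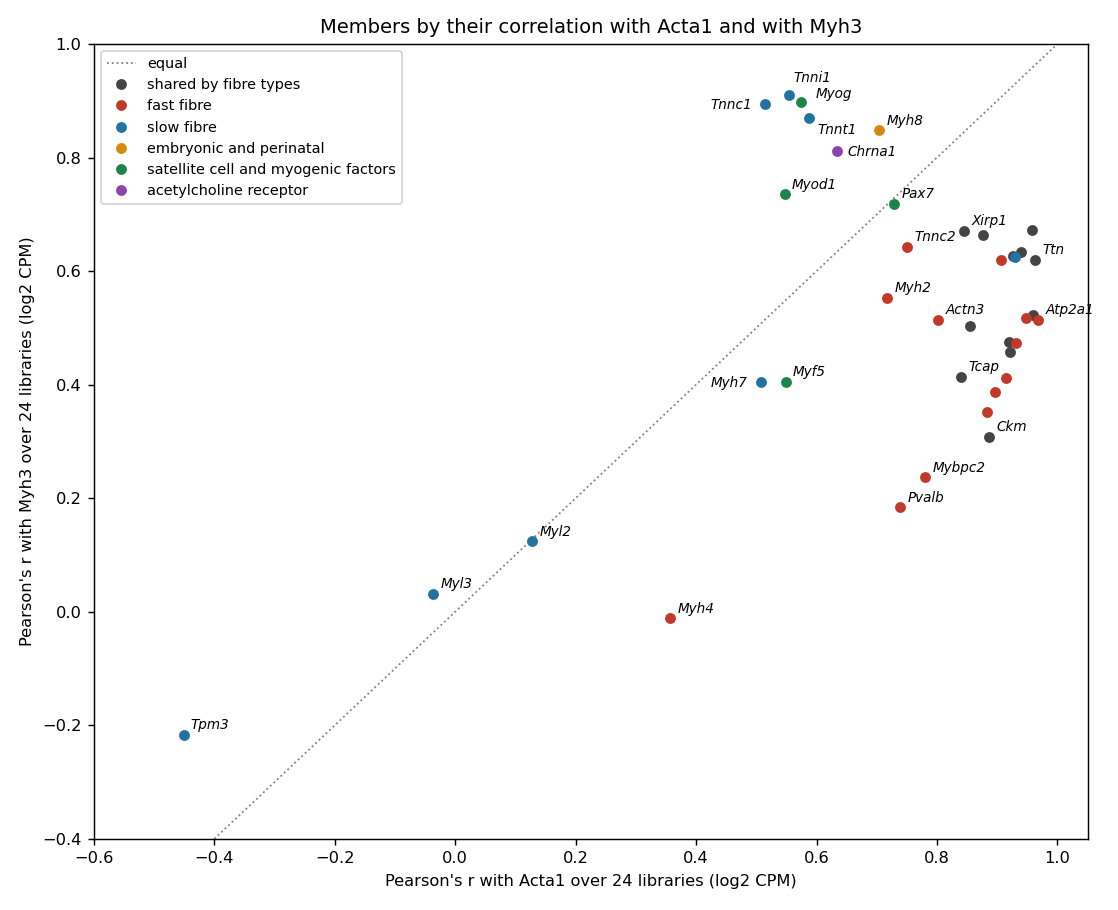
Pearson's r of each member with Acta1 (x axis) and with Myh3 (y axis) over 24 libraries on log2 CPM, coloured by fibre class, with a dotted line where both are equal. The slow troponins, Myog, Myh8, Chrna1 and Myod1 lie above the line, Atp2a1, Ttn and Ckm lie below it at the right, and Myh4 and Tpm3 lie apart.

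Genes of other cell types were set against Acta1 in the same way. Krt14, a keratin of basal epidermis, had r = -0.651 and rho = -0.495 (adjusted permutation p = 0.0013 and 0.0197), and r was -0.551 without Ctrl 4 and CMA 3. Acta2, smooth muscle actin, had r = -0.499 and rho = -0.509 (adjusted permutation p = 0.0167 and 0.0165), with r = -0.327 and an adjusted p = 0.159 in the permutation test without these libraries. Adipoq of fat cells had r = 0.436 and rho = 0.51 (adjusted permutation p = 0.0393 and 0.0165). The globin Hbb-bs, the smooth muscle myosin Myh11, Col1a1 and Ucp1 did not pass, with r between -0.383 and 0.0409. Without Ctrl 4 and CMA 3, Col1a1 (r = -0.524) and Ucp1 (r = -0.453) passed. CPM are shares of a library, so genes of different cells are not independent in them.

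The groups were compared to ask whether a conditioned medium changed the muscle genes. Against Ctrl, 0 of 36 members had an adjusted p under 0.05 in edgeR's quasi-likelihood test for CM0, CM1, CMA, CMC or the mean of the 4 media, and in each of these 0% of the 18978 tested genes were called. The smallest adjusted p of a member in edgeR was 0.953, 0.695, 0.728, 0.618 and 0.446 in that order. At an unadjusted p under 0.05 stood 0 members for CM0 (4.92% of all genes), 2 for CM1 (7.04%), 6 for CMA (6.61%), 0 for CMC (8.55%) and 4 for the mean (9.42%). DESeq2 and limma voom with quality weights also called 0 members in all 5, and at an unadjusted p under 0.05 DESeq2 had 1, 8, 10, 0 and 5 members and limma 0, 5, 7, 0 and 6 in the same order. The shares of all genes with these tools are not given here, so their counts cannot be weighed against those of edgeR. The test for any difference among the 5 groups called 0 members (0% of all genes), with a smallest adjusted p = 0.929 in edgeR, and 0 at an unadjusted p under 0.05 (4.65% of all genes).

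Most member estimates were below 0. Of the 36, 32 were lower in CM0 than in Ctrl (52.6% of all genes), 35 for CM1 (51.3%), 36 for CMA (53.3%), 33 for CMC (51.6%) and 34 in the mean of the media (52.9%). The median log2 fold change of the members was -0.21, -0.70, -0.71, -0.37 and -0.49, against -0.01 for all genes in each. The members move together, and so these are not independent, and the 5 comparisons share the same 6 controls. Intervals were wide: a 95% interval within 2-fold in either direction was reached by 4, 1, 1, 3 and 4 members, against 83.5%, 82.4%, 84.0%, 84.2% and 92.1% of all genes, and a median SE of 0.47, 0.48, 0.45, 0.44 and 0.34 stood behind the members' log2 values. With this spread, differences of 2-fold and more could be missed as well as smaller ones. The log2 fold changes of Myh4 for CMA (-1.55) and of Casq1 for CM1 (-1.13) were not called.

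For CM0, CMC and the mean of the media the sign of the members' median changed without Ctrl 2 and Ctrl 4. No fit left out the lowest libraries of the media together. Ctrl 2 or Ctrl 4 was the highest library in 26 of the 36 members. That leaving them out would raise most estimates could therefore be foreseen. When both were left out, an alternative added after their values were seen, the median of the 35 members then tested was 0.30 for CM0, -0.20 for CM1, -0.14 for CMA, 0.14 for CMC and 0.01 for the mean of the media, with 18 members higher and 17 lower in the mean and 0 called. With single libraries left out, the median for CM0 ran from -0.55 (without CM0 2) to 0.02 (without Ctrl 4), and that for the mean of the media from -0.61 to -0.30. Ctrl 4 had the lowest total count and the largest mitochondrial share of counts of all libraries (1.34%; range 0.748% to 1.34%); whether this bears on the result was not tested.

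Casq1 had the smallest p in all 5 comparisons with Ctrl. Its log2 fold change was -0.86 ± 0.32 (SE; 95% interval -1.52 to -0.20; adjusted p = 0.446) for the mean of the media, -0.44 for CM0, -1.13 for CM1, -1.05 for CMA and -0.81 for CMC, and without Ctrl 4 the value for the mean was -0.35, and without Ctrl 2 and Ctrl 4 it was -0.02. Myl1, the fast essential light chain, stood at -0.66 ± 0.30 (SE; 95% interval -1.28 to -0.04; adjusted p = 0.503) and Ryr1 at -0.61 ± 0.29 (SE; 95% interval -1.20 to -0.01; adjusted p = 0.52) for the mean. In CM1 the next smallest p were those of Myl1 (-0.92) and Xirp1 (-0.81), and in CM0 those of Myog (-0.44) and Myh3 (-0.46). In CMA they were those of Myh4, -1.55 ± 0.66 (SE; 95% interval -2.92 to -0.18; adjusted p = 0.733), and Atp2a1 (-0.93), and in CMC those of Myh4 (-1.20) and Myh8 (-0.82). All adjusted p here are those of edgeR, and 0 of these differences passed.

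By class, the median log2 fold change for the mean of the media was -0.61 in 12 fast fibre genes (11 lower), -0.50 in 13 shared genes (13 lower), -0.39 in 5 slow fibre genes (4 lower), -0.55 in Myh3 and Myh8 (both lower) and -0.50 in Pax7, Myod1 and Myog (all lower). By role it was -0.64 in the calcium and energy genes (5 of 5 lower), -0.62 in the thick filament (8 of 9), -0.40 in the thin filament (7 of 8) and -0.44 in the Z-disc, titin and desmin genes (10 of 10). Myh2 (0.02) and Tpm3 (0.01) were the 2 members not below 0. Chrna1 stood at -0.40 and Pax7 at -0.63.

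**Figure D5:**
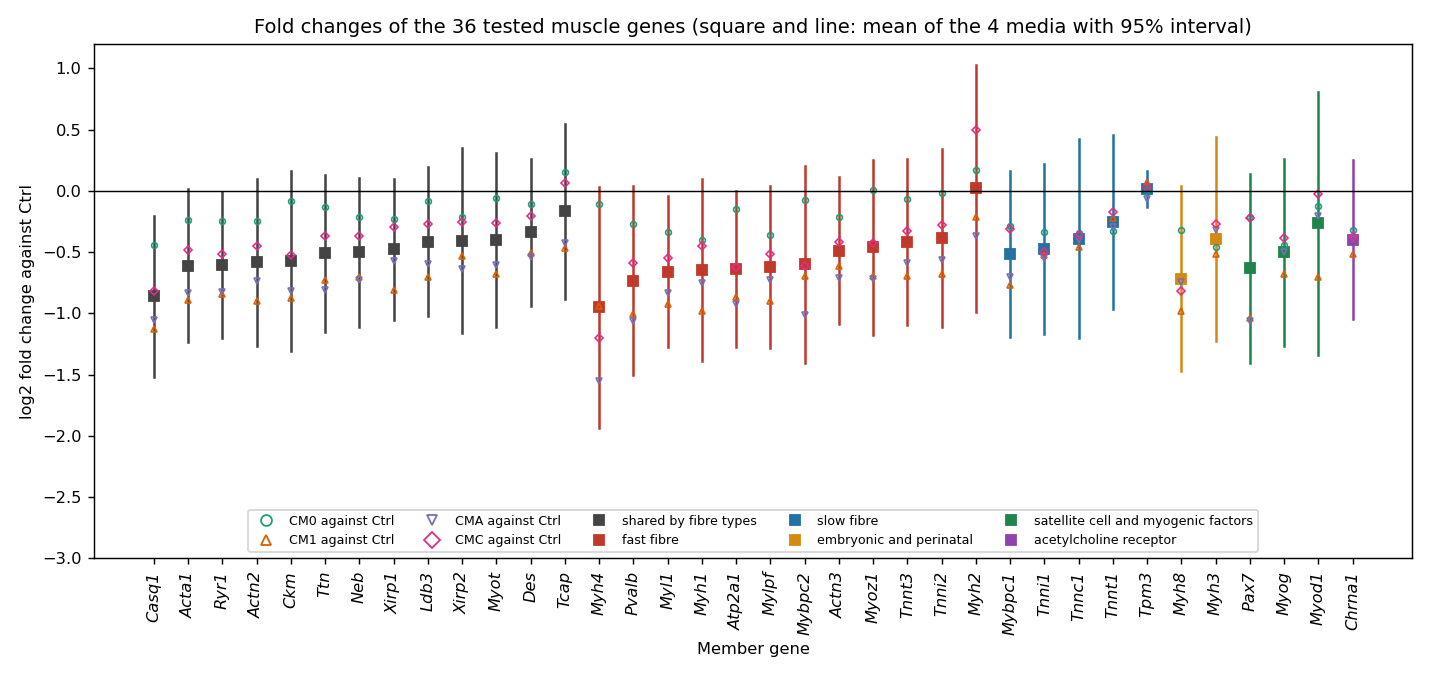
Log2 fold change against Ctrl of the 36 tested members, with a square and line for the mean of the 4 media and its 95% interval and open symbols for each medium, coloured by fibre class. Squares lie below 0 for 34 members, most intervals cross 0, and 0 members passed the adjusted threshold.

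Libraries of a medium lay wholly apart from the 6 controls in few members. All 4 CM1 libraries were below every control in 2 of 36 members, Xirp1 and Pax7, against 0.648% of all genes. Pax7 rested on few counts, 3, 5, 4 and 5 in CM1 and 7, 7, 7, 10, 5 and 13 in Ctrl. CM1 2 and CM1 4 had the same 5 counts as Ctrl 5 and lay lower only through library size. Xirp1 was 17.5, 12.7, 17.8 and 8.63 CPM for CM1 and 19.2 to 36.3 in Ctrl. Wholly below the controls lay 0 members for CM0 (0.516% of all genes), CMA (0.179%) and CMC (0.311%). Wholly above them lay 0 members in any medium (0.285%, 0.453%, 0.148% and 0.232% of all genes for CM0, CM1, CMA and CMC).

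Between media, 0 of 36 members were called in any of 6 pairs (0% of all genes in each), and the count was also 0 in each pair by DESeq2 and limma. At an unadjusted p under 0.05 the count was 0 for CM1 minus CM0 (2.22% of all genes), CMA minus CM0 (3.14%), CMC minus CM0 (3.72%), CMA minus CM1 (4.00%), CMC minus CM1 (2.71%) and CMC minus CMA (6.16%). The median log2 difference of the members was -0.59 for CM1 minus CM0, -0.51 for CMA minus CM0, -0.18 for CMC minus CM0, 0.05 for CMA minus CM1, 0.35 for CMC minus CM1 and 0.30 for CMC minus CMA. Below 0 stood 34 of 36 members for CM1 minus CM0 (49.1% of all genes), 34 for CMA minus CM0 (49.1%), 30 for CMC minus CM0 (50.8%), 15 for CMA minus CM1 (49.8%), 2 for CMC minus CM1 (50.8%) and 1 for CMC minus CMA (49.1%).

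Other muscle genes, 82 in 7 lists of which 80 were tested, were also not called in any comparison with Ctrl (0 of 80 in each). Of all genes 52.9% were lower in the mean of the media. By summed level Ctrl 2 ranked 1 to 3 among the 24 libraries in every list. Ctrl 4 did so in all but the neuromuscular junction (rank 5) and atrophy (rank 12) lists. Most lists were thus high in the same libraries as the members and are not independent of them. For the mean of the media, 13 of 14 other excitation-contraction genes were lower (median log2 fold change -0.46), with Hrc and Srl of the sarcoplasmic reticulum at -0.50 each. All 16 other Z-disc and M-band genes were lower (-0.38), with Flnc, a filamin of muscle, at -0.10 and Klhl41 at -0.45. Of the 13 energy genes 13 were lower (-0.18), with Eno3, muscle enolase, at -0.39 and Mb, myoglobin, at -0.18. Among genes of the dystrophin complex and membrane repair 9 of 10 were lower (-0.30), with Sgcb, a sarcoglycan, at -0.25 and Trim72 at -0.34. At the neuromuscular junction 9 of 9 were lower (-0.37), with Chrnb1 at -0.37 and Lrp4 at -0.09. Of the regeneration and fusion genes 10 of 11 were lower (-0.39), with Actc1, cardiac actin of developing fibres, at -0.93 and Myl4, the embryonic light chain, at -0.32. Of 7 atrophy genes 5 were lower (-0.13), with Mt2 at -0.22 and Foxo3 at 0.05.

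Marker lists of other cells stood beside these values. For the mean of the media the median log2 fold change was 0.35 in 6 keratinocyte genes (6 higher), 0.20 in 6 dermal fibroblast genes, 0.22 in 6 white adipocyte genes, -0.02 in 7 smooth muscle genes, -0.38 in 5 Schwann cell genes, 0.30 in 5 erythrocyte genes, -0.30 in 3 brown adipocyte genes and -4.07 in 4 hair follicle genes, all 4 highest in Ctrl 3. None of these genes was called. The summed keratinocyte level was 5539 to 12675 CPM in Ctrl, 9056 to 16400 for CM0, 8649 to 14922 for CM1, 9025 to 19944 for CMA and 5500 to 12344 for CMC, and the highest library, CMA 3, had the least Acta1. The summed hair follicle level was 3.62 to 7420 CPM in Ctrl, 6.12 to 448 for CM0, 18.2 to 58.8 for CM1, 7.99 to 920 for CMA and 4.89 to 117 for CMC. The highest control is 1 library, Ctrl 3, and the group medians of this sum were 17.2 CPM in Ctrl, 25.9 for CM0, 37.0 for CM1, 124.5 for CMA and 18.6 for CMC, lowest in Ctrl, against the sign of the fitted median. The part of these cells in the muscle values was not tested.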

How the data were processed

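Total RNA of day 10 wound tissue was depleted of ribosomal RNA and made into libraries with a kit that does not mark strand, per the labels' protocols. The authors deposited raw counts per gene; per the submitters' processing notes reads were handled with bcl2fastq 2.17, FastQC, cutadapt, STAR, featureCounts and DESeq2 on GRCm38, while the sources used here do not give the annotation release or the handling of multiply matching reads.

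From these counts, edgeR 4.0.16 (R 4.3.3) modelled the 5 groups on all 24 libraries, with TMM scaling, filterByExpr and robust quasi-likelihood dispersion, and p-values were Benjamini-Hochberg adjusted over 18978 genes at a threshold of 0.05. DESeq2 1.42.0 and limma 3.58.1 (voom with sample quality weights) were alternatives. CPM were scaled by TMM, lengths are unions of GENCODE M21 exons, and 54079 of 54232 gene identifiers had a symbol there. Correlations used Python 3.11.15 and scipy 1.17.1, and coding sequences were aligned with mafft 7.526. The edgeR step was tested on simulated data.

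Totals of 7267879 to 11985292 counts set the precision of low genes; floors of 3 counts and all counting limits cover counting error only. Groups came from the treatment labels, and replicate numbers follow the order of deposit and pair nothing. No 2 libraries of a group were alike within sampling noise (lowest chi-square per degree of freedom 10.3). The labels count mice per group but do not tie a library to an animal, so p-values measure the spread between these samples.

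The members, gene lists and reference genes were chosen with earlier results of these data known. Genes were named where called, where among the 3 tested members with the smallest unadjusted p against Ctrl, or from a chosen panel; in other muscle lists, the 2 highest per exon length. Marker genes were named by list or in the Acta1 correlations. The correlation of 1 marker is not reported here. Alternatives were DESeq2 size factors, no filter on low counts, other tools, fits of 2 groups only, each library left out, shares without exon length, a prior count of 0.5 and deviations from group means; leaving out Ctrl 2 and Ctrl 4 together and the Myh3 correlations were added after seeing the data.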

Additional observations from a re-analysis of the deposited data

Results flagged for a closer look

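Within groups of 4 to 6 libraries, 8 of 115 sets of values held a library far from the others of its group. The measure was Dixon's ratio at the 95% level, where chance gives about 1 in 20 for independent, normal values. These genes vary together and some sets are shares of the same genes, so the 8 cannot be weighed against that rate. Acta1 was 1601 CPM in CM0 2 against 689 to 791 in the other CM0 libraries. Ckm was 386 CPM in CMA 2 against 89.7 to 169.6 in the other CMA libraries. Myh4 was 869.6 CPM in CM1 4 against 249.8 to 319 in the other CM1 libraries, and the Myh1 share of myosin was 27.7% in CM1 4 against 65.3% to 70.3%. Myh2 was 217 CPM in CM1 3 against 58.0 to 62.1. Pvalb was 449 CPM in Ctrl 4 against 52.8 to 127 in the other controls. Myh7 was 0.601 CPM in CMA 4, from 5 counts, and 0 in the other CMA libraries, so that any count above 0 would have been flagged. The Tnnt3 share was 97.2% in CM0 3 against 99.1% to 99.3% in the other CM0 libraries.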

How the results depend on the processing

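No paired analysis was possible because the labels give no replicate numbers that samples of different groups share. Over 24 fits that each left out 1 library, 0 members were called in any comparison. Of 576 summary values 1 changed sign, the members' median for CM0 (0.019 without Ctrl 4). Only the members' medians could change sign, since the other summary values are counts or shares, which cannot be below 0. Of 2077 values of single genes 43 changed sign. Under the other settings 8 of 134 summary values moved by over 1 SD between replicates, 3 others changed sign (the members' medians without Ctrl 2 and Ctrl 4 together, 0.30 for CM0, 0.14 for CMC and 0.0091 for the mean), and 27 of 501 values of single genes changed sign. Without exon length the share of Myh3 and Myh8 was higher in every group, at 11.9% for Ctrl, 11.2% for CM0, 11.4% for CM1, 13.7% for CMA and 10.4% for CMC, that of Tnni2 was 91.9%, 93.0%, 92.1%, 91.5% and 93.3% in Ctrl, CM0, CM1, CMA and CMC, and that of Tnnt3 was 98.0% in Ctrl. With limma voom the log2 value of Myh2 was -0.025 for CM0 and -0.088 for the mean of the media. Without Ctrl 2 and Ctrl 4 together the log2 values that changed sign were, for CM0, Acta1 0.29, Atp2a1 0.41, Casq1 0.40, Chrna1 0.024, Ckm 0.72, Myh1 0.14, Myh4 0.64, Myh8 0.19, Myod1 0.048, Pvalb 0.68, Ryr1 0.10 and Ttn 0.41. For CMC they were Acta1 0.035, Casq1 0.022, Ckm 0.28, Myh1 0.093, Myod1 0.15, Pvalb 0.36 and Ttn 0.17, for CM1 and CMA Myh2 0.20 and 0.053, and for the mean Ckm 0.23, Myl1 0.027, Pvalb 0.22 and Ttn 0.036. With each library left out, signs changed for CM0 in Acta1 (-0.62 to 0.017), Atp2a1 (-0.59 to 0.12), Casq1 (-0.85 to 0.065), Ckm (-0.68 to 0.31), Myh2 (-0.50 to 0.58), Myh4 (-0.74 to 0.66), Myod1 (-0.85 to 0.29), Pvalb (-0.82 to 0.49) and Ttn (-0.53 to 0.076). They changed for CM1 in Myh2 (-0.94 to 0.20), for CMA in Myh2 (-0.91 to 0.043) and Myod1 (-0.64 to 0.093), for CMC in Myod1 (-0.51 to 0.25), Pax7 (-0.35 to 0.094) and Pvalb (-0.77 to 0.17), and for the mean in Myh2 (-0.17 to 0.43) and Pvalb (-0.91 to 0.033). The cause was not tested. The spread between wounds of a group, and for Myh7, Myl2, Tnnc2 and the myogenic factors the few counts, limit what could be detected.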
